A study of Mus musculus with 21 samples.

Results

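The genes described here encode the contractile apparatus of the skeletal muscle fibre and the proteins that hold it together, switch it on and fuel it. They are 42 listed genes, of 19938 genes with a probeset that the platform annotation gives to a single gene. Each of the 42 has exactly 1 such probeset, so that no choice between probesets was needed. Of these, 36 passed a filter on dim genes (mean log2 signal over the 12 pools of at least 6.45, the 30th percentile of all genes) and were tested among 13956 genes. The 6 dim genes were the adult fast myosins Myh2 and Myh4, the light chains Myl2 and Mylpf, the myosin-binding protein Mybpc2 and the Z-disc cap protein Tcap. Their values are given without a test, apart from an alternative that left out the filter. By isoform, 5 genes are developmental or cardiac forms, 8 are slow-fibre forms, 12 are fast-fibre forms and 17 are shared by fibre types.

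Expression was measured with Affymetrix Mouse Gene 1.0 ST arrays in satellite cells, the stem cells of skeletal muscle, in a study that asks how an injury in another limb changes quiescent stem cells and which part mTORC1 signalling and the cMet receptor play. Hindlimb satellite cells were sorted as YFP-positive cells, and RNA (100 ng per array) was taken without culture. All mice, wild-type (WT) controls included, carried the tamoxifen-inducible Cre allele Pax7CreER/+ and the reporter Rosa26REYFP/+, and had received tamoxifen no less than 2 weeks earlier. WT mice had no floxed allele, and the knockouts (KO) were TSC1flox/flox (TSC1 restrains mTORC1), Rptrflox/flox (raptor, a subunit of mTORC1) and cMetflox/flox (the receptor of hepatocyte growth factor). Cre from the Pax7 locus acts in satellite cells, and a fibre can receive the deleted allele only through cells that fuse into it. The strain was mixed C57BL6, except for the cMet KO mice, which were C57BL6 mixed FVB. The age range was 3-5 months throughout, and each pool combined cells of 3 or 4 mice. Quiescent satellite cells (QSC) came from noninjured mice. Contralateral satellite cells (CSC) came from the limb opposite to a BaCl2 injury, 2.5 days after it unless stated. WT QSC had 3 pools on 5 arrays, WT CSC had 3 pools on 4 arrays. For the 6 remaining groups there was 1 pool on 2 arrays each: QSC of all 3 knockouts, CSC of the Rptor and cMet knockouts, and WT CSC taken 28 days after injury. Each such group has no replicate, so that a difference of genotype or of time and a difference of that pool cannot be told apart, and the tests borrow the spread of the WT pools.

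A sarcomere is the repeating unit of the myofibril, in which thick filaments of myosin slide along thin filaments of actin, with titin and nebulin as molecular rulers and the Z-disc and M-band as anchors. Troponin and tropomyosin on the thin filament gate contraction by calcium, which the ryanodine receptor releases from the sarcoplasmic reticulum. Most of these proteins come in developmental, slow and fast isoforms from separate genes, and committed muscle cells turn the developmental ones on first. A quiescent satellite cell holds no sarcomeres.

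Of the cell markers measured, the 10 genes of the satellite cell list had median log2 levels between 10.56 and 11.76 in all 12 pools. Markers of other cells were measured in these pools too. Their medians were 8.29 to 10.09 for fibro-adipogenic, 7.70 to 9.97 for endothelial and 7.77 to 9.49 for smooth muscle and pericyte genes. For macrophage and monocyte genes they were 6.52 to 8.40. The arrays of a pool differed by a median of 0.057 to 0.186 over the 42 genes, and the largest gap was 0.74 (Casq1 in Rptor KO QSC). The whole-gene probesets of the targeted genes did not check the genotypes, since no label names the deleted exons. Tsc1 was at 8.16 in TSC1 KO QSC against 8.34 to 8.69 in WT QSC, Rptor (8.91 to 9.58 in WT QSC) was at 9.19 in QSC of its knockout, and Met (9.93 to 10.11 in WT QSC) at 10.25 in QSC of its knockout. None of these 3 differences passed the test.

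Most of the 42 genes had the same order of pools within a group. In WT QSC, pool 2 was the lowest of the 3 pools for 37 of the 42 genes (50.4% of all genes tested) and pool 3 the highest for 33 (28.9%). Relative to the WT QSC mean, pool 2 was also lowest for the endothelial (-0.37), macrophage and monocyte (-0.31), fibro-adipogenic (-0.30) and smooth muscle and pericyte medians (-0.26). Pool 3 was highest for the endothelial (0.30) and macrophage and monocyte medians (0.20). For the satellite cell median pool 3 was lowest (-0.14). The SD between the 3 WT QSC pools was above 0.5 for 10 of the 36 tested genes, against 5.32% of all genes tested. It was widest for the skeletal actin Acta1 (SD 1.22), titin Ttn (1.04) and the cardiac actin Actc1 (1.03, n = 3 each). In WT CSC, pool 1 was the highest of 3 for 34 of the 42 genes (48.6% of all genes) and pool 3 the lowest for 29 (36.9%). Any comparison with WT QSC therefore carries this spread, which is wide for actins and titin and narrow for several troponins.

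**Figure D1:**
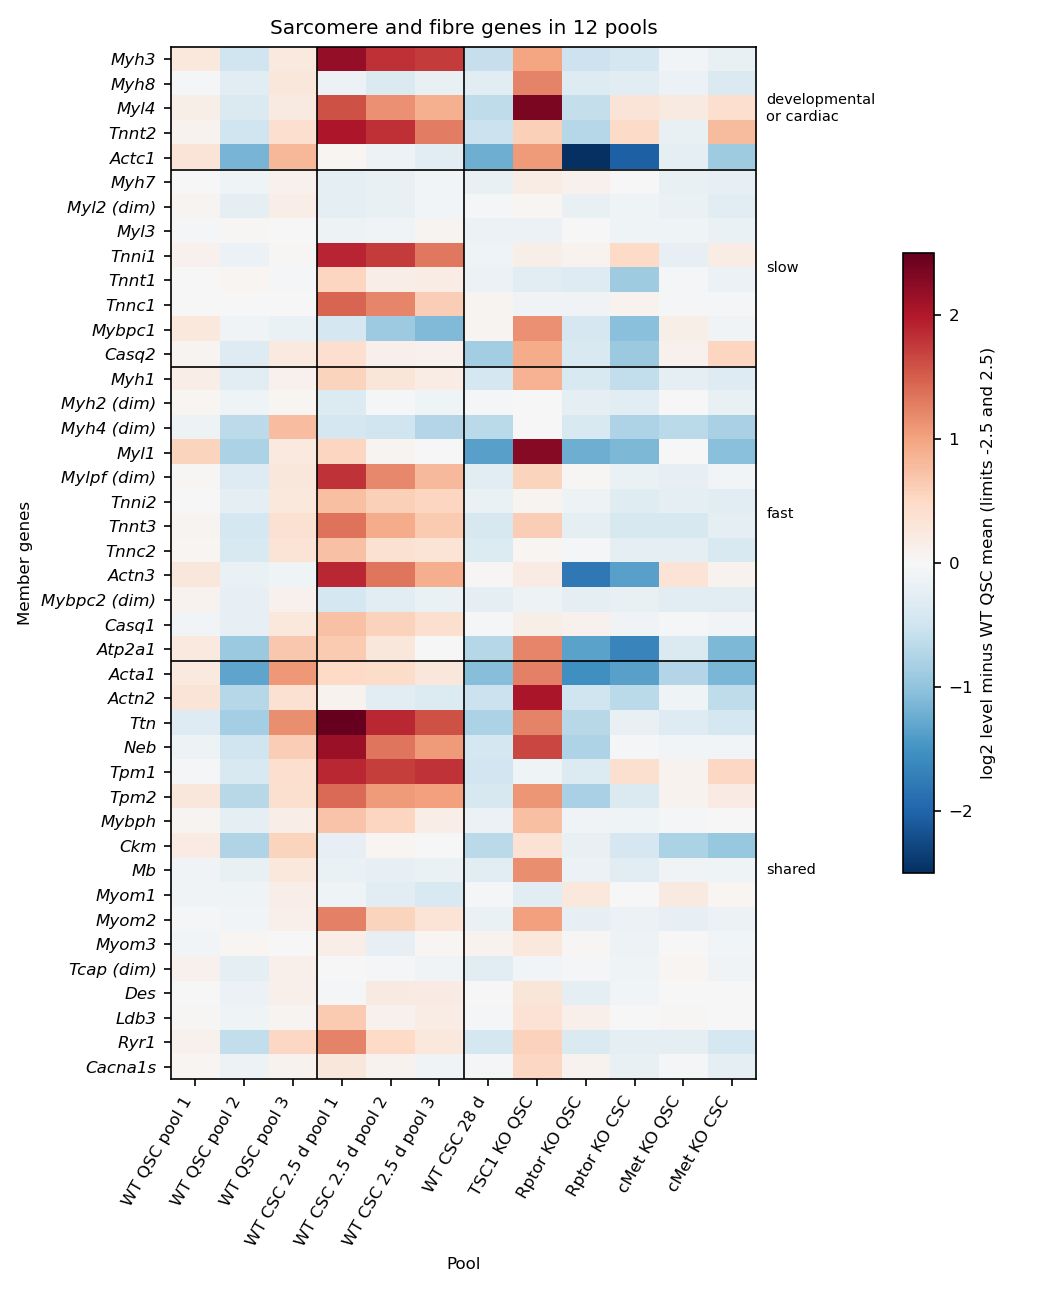
Level of each of the 42 genes (rows, by isoform class) in each of the 12 pools (columns), as the log2 difference from the mean of the 3 WT QSC pools. Colours end at -2.5 and 2.5, and Actc1 in Rptor KO QSC (-3.31) and Ttn in WT CSC pool 1 lie beyond those limits. Red blocks lie in WT CSC (Myh3, Tnnt2, Tnni1, Ttn, Tpm1) and in TSC1 KO QSC (Myl4, Myl1, Actn2).

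The first comparison asks how an injury in the other limb changed these genes in WT cells, with 3 pools against 3. In WT CSC, 13 of the 36 tested genes rose and 1 fell, against 10.6% and 7.36% of all genes tested (18% in either direction). The genes that rose were thin-filament regulators above all: 7 of the 9 troponins and tropomyosins rose. With them rose the embryonic myosin Myh3, the embryonic and atrial light chain Myl4, titin, nebulin, the fast alpha-actinin Actn3 and the calcium store protein Casq1, while the slow myosin-binding protein Mybpc1 fell. The median difference was 0.38 over the 36 tested genes and 0.31 over all 42, against -0.05 over all genes tested. By pool, the median of the 42 genes relative to the WT QSC mean was 0.06, -0.26 and 0.24 in WT QSC and 0.54, 0.25 and 0.18 in WT CSC, so that the groups overlapped in this summary while single genes separated fully.

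For 18 of the 36 tested genes every WT CSC pool was above every WT QSC pool (18.7% of all genes tested), and for 2 every WT CSC pool was below (19.1%). These 18 were the 13 that rose together with Myh1, Tnnt1, Mybph, Myom2 and Ldb3, which did not pass the test. The 2 that were lower were Mybpc1 and Myom1, of which Mybpc1 passed. The dim fast light chain Mylpf also separated, with 6.12, 5.76 and 6.37 in WT QSC and 7.89, 7.28 and 6.90 in WT CSC. With no filter on dim genes Mylpf passed and Casq1 did not, with 14 of 42 genes called (10.7% of all genes).

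Leaving out WT CSC pool 1 or WT CSC pool 2 reduced the 14 calls to 9, while the share of all genes called went from 18% to 9.29% or 9.24%. Myh3, Myl4, Tnni1, Tnnt2, Tnnc1, Actn3, Neb and Tpm1 passed under every alternative in which they were tested. The labels number the 3 pools of each WT group as biological replicates, and the p-values measure the spread between these pools.

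Troponin I holds the thin filament switched off until calcium arrives, and its slow form Tnni1 showed the smallest p of the 42 genes. Tnni1 was at 7.27, 7.02 and 7.20 in the 3 WT QSC pools and at 9.07, 8.91 and 8.48 in the 3 WT CSC pools. The WT CSC pools lay far above, by 1.65 ± 0.17 (SE, 3.15-fold, limma adjusted p = 0.000483). In the single pools Tnni1 was at 7.06 in WT CSC at 28 days, 7.32 in TSC1 KO QSC, 7.25 in Rptor KO QSC, 7.65 in Rptor KO CSC, 6.96 in cMet KO QSC and 7.35 in its CSC pool. All 6 lay far below the WT CSC pools, and Rptor KO CSC, whose 2 arrays differed by 0.71, was the highest of them. The fast form Tnni2 was at 8.04, 7.80 and 8.32 in WT QSC and at 8.80, 8.66 and 8.58 in WT CSC, a rise of 0.63 ± 0.16 without overlap. Its 6 single pools ranged only from 7.76 in Rptor KO CSC to 8.13 in TSC1 KO QSC, all within or below the WT QSC range.

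Troponin T ties troponin to tropomyosin. The cardiac form Tnnt2, which embryonic and regenerating skeletal muscle also uses, was at 8.32, 7.75 and 8.66 in WT QSC and at 10.26, 10.07 and 9.52 in WT CSC. That was a rise of 1.70 ± 0.26 (3.26-fold, limma adjusted p = 0.00308). Its level was 7.70 in WT CSC at 28 days, 8.84 in TSC1 KO QSC, 7.53 in Rptor KO QSC, 8.73 in Rptor KO CSC, 8.06 in QSC and 9.04 in CSC of the cMet KO. Both knockout CSC pools were thus above the QSC pool of their own genotype for Tnnt2 and below all WT CSC pools. The fast form Tnnt3 was at 8.13, 7.63 and 8.44 in WT QSC and at 9.43, 8.99 and 8.72 in WT CSC, a rise of 0.98 ± 0.24. It stood at 8.69 in TSC1 KO QSC and between 7.66 and 7.84 in the other 5 single pools. The slow form Tnnt1 was at 7.85, 7.92 and 7.84 in WT QSC and at 8.41, 8.04 and 8.06 in WT CSC, a difference of 0.30 ± 0.14 that did not pass (limma adjusted p = 0.185). In the single pools Tnnt1 was at 7.72, 7.61, 7.54, 6.99, 7.82 and 7.72 in the order of the 6 groups used for Tnni1, with Rptor KO CSC lowest of all 12 pools.

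Troponin C is the calcium sensor. Its slow and cardiac form Tnnc1 had nearly the same level in all 3 WT QSC pools (6.77, 6.77 and 6.79) and 8.23, 8.0 and 7.40 in WT CSC. The rise was 1.10 ± 0.20 (2.14-fold, limma adjusted p = 0.00698). In the 6 single pools it stayed between 6.69 (TSC1 KO QSC) and 6.87 (Rptor KO CSC), next to the WT QSC level. The fast form Tnnc2 was at 7.38, 6.95 and 7.68 in WT QSC and at 8.08, 7.73 and 7.67 in WT CSC, which overlapped, and 0.49 ± 0.20 did not pass (limma adjusted p = 0.132). Its single pools lay between 6.96 (cMet KO CSC) and 7.39 (TSC1 KO QSC).

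Tropomyosin covers the myosin-binding sites of actin. Tpm1 was at 9.05, 8.72 and 9.52 in WT QSC and within a narrow range, 10.98, 10.82 and 10.90, in WT CSC. It rose by 1.80 ± 0.19 (3.49-fold, limma adjusted p = 0.000614). It was at 8.61 in WT CSC at 28 days, 8.99 in TSC1 KO QSC, 8.74 in Rptor KO QSC, 9.49 in Rptor KO CSC, 9.19 in QSC and 9.60 in CSC of the cMet KO. Tpm2 was at 8.92, 7.93 and 9.03 in WT QSC and at 10.04, 9.70 and 9.66 in WT CSC, a rise of 1.17 ± 0.27. TSC1 KO QSC (9.74) lay inside the WT CSC range for Tpm2 but inside the WT QSC range for Tpm1. The other single pools had Tpm2 between 7.82 (Rptor KO QSC) and 8.83 (cMet KO CSC). Tnni2 did not pass without WT QSC pool 1 (0.62) or 2 (0.50) or any single WT CSC pool (0.57 to 0.68), Tnnt3 without WT CSC pool 1 (0.79) or 2 (1.01), and Tpm2 without any single WT CSC pool (1.05 to 1.24).

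Myosin heavy chains are the motors of the thick filament, and their genes mark the age and type of a fibre: Myh3 is embryonic, Myh8 perinatal, Myh7 slow, and Myh2, Myh1 and Myh4 are the adult fast forms IIa, IIx and IIb. Of the 4 that were tested, Myh3 alone passed. Myh3 was at 6.75, 5.99 and 6.73 in WT QSC and at 8.69, 8.32 and 8.24 in WT CSC, a rise of 1.92 ± 0.22 (3.79-fold, limma adjusted p = 0.000838). TSC1 KO QSC was at 7.48, between the WT groups, and the other 5 single pools lay between 5.92 (WT CSC at 28 days) and 6.43 (cMet KO QSC). The perinatal Myh8 showed another pattern, with 7.07, 6.83 and 7.39 in WT QSC and 6.95, 6.73 and 6.92 in WT CSC (-0.23 ± 0.16, limma adjusted p = 0.38). TSC1 KO QSC stood alone for Myh8 at 8.34, above the 5 other single pools at 6.73 to 6.95. Myh1 was at 6.64, 6.21 and 6.59 in WT QSC and at 7.03, 6.78 and 6.66 in WT CSC, without overlap but not past the test (0.34 ± 0.16, limma adjusted p = 0.187), and its highest pool was TSC1 KO QSC at 7.35. Its other single pools lay between 5.86 (Rptor KO CSC) and 6.23 (cMet KO QSC).

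The slow Myh7 stayed between 6.61 and 7.04 in all 12 pools, with WT QSC at 6.87, 6.74 and 6.96 and WT CSC at 6.61, 6.67 and 6.79. The 2 dim adult fast myosins were not higher in WT CSC. Myh2 lay between 5.98 and 6.37 in all pools. Myh4 was highest in WT QSC pool 3 (7.64, with 6.74 and 6.22 in the other WT QSC pools), against 6.43, 6.37 and 6.14 in WT CSC and 6.05 to 6.87 in the single pools. WT QSC pool 3, measured on 1 array, held the highest signal of this dim gene, the most abundant myosin of adult mouse limb muscle. It also held the highest WT QSC values of Acta1 (11.56) and of the muscle creatine kinase Ckm (8.98). Of the 3 WT QSC pools, pool 3 was highest for 33 of the 42 genes (28.9% of all genes tested). Pool 1 was highest for 6 (49.2%), among them Actn3 (9.33), Myl1 (9.15) and Myh1 (6.64).

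In the RefSeq annotation Myh3, Myh2, Myh1, Myh4 and Myh8 are neighbours on chromosome 11, with 0 protein-coding genes between each and the next, and still the embryonic and the perinatal gene were highest in different groups. Tnni1 and Tnnt2 on chromosome 1 are separated by 1 gene, Lad1, and Tnni2 and Tnnt3 on chromosome 7 by 1 gene, Lsp1, and all 4 of these troponin genes rose in WT CSC. The 250 bases before the transcript start are shown for 2 genes highest in WT CSC (Myh3 and Tnni1) and 2 genes highest in TSC1 KO QSC (Myh8 and Myl1), read 5′ to 3′ on the gene's strand, from the RefSeq promoter table (GRCm38.p6). Capitals mark matches on either strand to CAGCTG (an E-box core bound by MyoD-family factors), CATTCC (the core of a TEAD site), TATAAA, the MEF2 site or the CArG box bound by serum response factor.
Myh3, chr11:67078050-67078299, plus strand: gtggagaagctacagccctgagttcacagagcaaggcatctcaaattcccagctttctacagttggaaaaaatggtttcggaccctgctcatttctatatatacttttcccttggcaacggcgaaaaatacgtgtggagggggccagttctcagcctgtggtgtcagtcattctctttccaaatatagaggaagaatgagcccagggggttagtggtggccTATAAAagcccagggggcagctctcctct
Tnni1, chr1:135799171-135799420, plus strand: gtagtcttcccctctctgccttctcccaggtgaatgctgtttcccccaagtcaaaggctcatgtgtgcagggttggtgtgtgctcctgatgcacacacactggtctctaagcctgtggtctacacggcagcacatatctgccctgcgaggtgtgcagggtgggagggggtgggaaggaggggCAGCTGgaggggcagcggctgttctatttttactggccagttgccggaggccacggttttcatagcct
Myh8, chr11:67276874-67277123, plus strand: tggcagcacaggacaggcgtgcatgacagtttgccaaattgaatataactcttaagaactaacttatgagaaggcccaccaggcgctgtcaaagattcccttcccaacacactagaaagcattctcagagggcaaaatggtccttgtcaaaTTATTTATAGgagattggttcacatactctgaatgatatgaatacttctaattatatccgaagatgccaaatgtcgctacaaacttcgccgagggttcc
Myl1, chr1:66945057-66945306, minus strand: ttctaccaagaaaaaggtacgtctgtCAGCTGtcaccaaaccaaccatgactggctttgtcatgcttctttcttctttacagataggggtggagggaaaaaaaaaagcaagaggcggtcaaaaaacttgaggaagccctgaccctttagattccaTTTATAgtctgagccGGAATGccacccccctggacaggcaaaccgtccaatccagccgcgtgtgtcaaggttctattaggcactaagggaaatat
The Myh3 window held TATAAA 29 bases before the start, and the Tnni1 window held CAGCTG 68 bases before it. The Myh8 window held a MEF2 match that contains a TATAAA match on the other strand, and the Myl1 window held matches to an E-box core, a TEAD core and the TATA motif.

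The promoter table held 43 windows of this length for 36 of the 42 genes, and none for Actn3, Tnni2, Tnnt3, Tcap, Myom2 and Neb. CAGCTG was present in 18 of these 43 windows (16 genes), against 13.0% of all 32851 windows in the table. The CArG box was in 7 of 43 (Acta1, Actc1, Ldb3, Myh4, Myl3 and Myom1, against 1.47% of all windows), the MEF2 site in 6 (2.92%), CATTCC in 12 (12.6%) and TATAAA in 9 (12.4%). The wider E-box pattern CANNTG, which includes CAGCTG, was in 36 of 43 windows and in 66.2% of all. Among the 11 windows of the 9 genes that rose in WT CSC and have a window, 5 held CAGCTG, 1 held the MEF2 site (Ttn) and 0 held the CArG box. By gene, CAGCTG was in 4 of the 9, as the overlapping Tnni1 windows hold the same site. A match describes the letters of the window and is not evidence of binding.

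**Figure D2:**
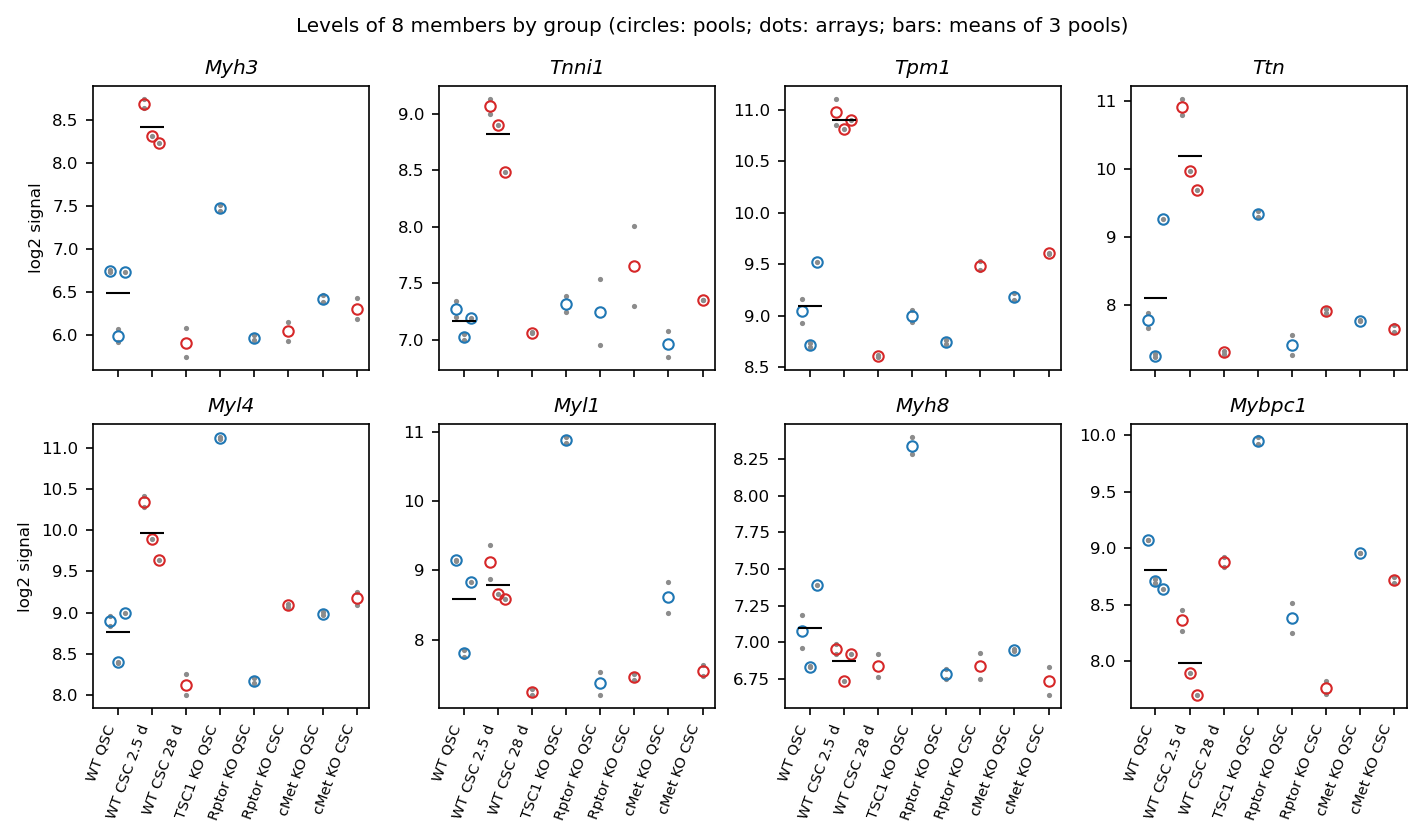
Log2 signal (vertical axes, own range per panel) of 8 genes in the 8 groups. Circles are pools, blue for QSC and red for CSC, grey dots are single arrays and black bars are the means of the 3 WT pools. Myh3, Tnni1, Tpm1 and Ttn are highest in WT CSC, Myl4, Myl1, Myh8 and Mybpc1 are highest in TSC1 KO QSC, and Mybpc1 is lower in WT CSC than in WT QSC.

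Myosin light chains stiffen and tune the motor. Myl4, the embryonic and atrial form, was at 8.90, 8.39 and 8.99 in WT QSC and at 10.35, 9.90 and 9.64 in WT CSC, a rise of 1.20 ± 0.22 (2.30-fold, limma adjusted p = 0.00668). The highest value of all was 11.12 in TSC1 KO QSC, with 8.12 in WT CSC at 28 days, 8.17 in Rptor KO QSC, 9.09 in Rptor KO CSC, 8.99 in QSC and 9.17 in CSC of the cMet KO. The fast essential light chain Myl1 was not separated in WT, with 9.15, 7.80 and 8.83 in WT QSC and 9.12, 8.66 and 8.59 in WT CSC. TSC1 KO QSC reached 10.88 for Myl1, and WT CSC at 28 days was lowest at 7.24. The slow light chain Myl3 varied by only 0.22 over all 12 pools, and the dim slow light chain Myl2 by 0.43.

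Actins form the thin filament and alpha-actinins anchor it at the Z-disc. Actn3, the alpha-actinin of fast glycolytic fibres, was at 9.33, 8.88 and 8.96 in WT QSC and at 10.95, 10.40 and 9.97 in WT CSC, a rise of 1.38 ± 0.24 (2.60-fold, limma adjusted p = 0.00551). Its level was 9.08 in WT CSC at 28 days, 9.26 in TSC1 KO QSC, 9.40 in QSC and 9.16 in CSC of the cMet KO, but 7.27 in Rptor KO QSC and 7.70 in Rptor KO CSC, below every other pool. Its paralog Actn2 was not higher in WT CSC (8.42, 7.37 and 8.48 against 8.18, 7.82 and 7.75) and reached 10.14 in TSC1 KO QSC. Neither skeletal actin Acta1 (0.42 ± 0.48) nor cardiac actin Actc1 (-0.12 ± 0.42) passed in WT CSC. Acta1 ran from 9.16 to 11.56 over the WT QSC pools and from 10.78 to 10.99 over the WT CSC pools, so that the WT CSC values fell inside the WT QSC range. The intermediate filament desmin (Des), which satellite cells also express, varied by 0.52 over all 12 pools, and the Z-disc adaptor Ldb3 by 0.75.

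Titin runs from Z-disc to M-band as a spring, and nebulin sets the length of the thin filament. Ttn was at 7.77, 7.25 and 9.26 in WT QSC and at 10.92, 9.98 and 9.70 in WT CSC, the largest rise of the 36 tested genes (2.10 ± 0.48, 4.29-fold, limma adjusted p = 0.0185). It was at 9.33 in TSC1 KO QSC and between 7.30 and 7.91 in the other 5 single pools. Without WT QSC pool 1 (1.94) or WT CSC pool 1 (1.74) Ttn did not pass. Neb was at 7.98, 7.62 and 8.72 in WT QSC and at 10.26, 9.44 and 9.18 in WT CSC, a rise of 1.52 ± 0.33 (limma adjusted p = 0.0144). TSC1 KO QSC, at 9.79, was inside the WT CSC range for Neb, and the other single pools lay between 7.34 (Rptor KO QSC) and 8.07 (Rptor KO CSC).

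Myosin-binding protein C sits on the thick filament and brakes the motor. The slow form Mybpc1 was at 9.07, 8.71 and 8.64 in WT QSC and at 8.36, 7.90 and 7.70 in WT CSC, a fall of 0.82 on the log2 scale (SE 0.20, limma adjusted p = 0.0212). It did not pass without WT QSC pool 1 (-0.69), WT CSC pool 2 (-0.78) or WT CSC pool 3 (-0.68). In the single pools Mybpc1 was at 8.88 in WT CSC at 28 days, 9.95 in TSC1 KO QSC, 8.39 in Rptor KO QSC, 7.77 in Rptor KO CSC, 8.95 in QSC and 8.72 in CSC of the cMet KO. TSC1 KO QSC was thus above, and both Rptor KO pools below, all 3 WT QSC pools. The M-band protein Myom2 missed the threshold in WT CSC (6.62, 6.60 and 6.81 against 7.93, 7.25 and 7.02; 0.72 ± 0.22, limma adjusted p = 0.0531). Its paralogs Myom1 (-0.25 ± 0.14) and Myom3 (7.03 to 7.40 in WT CSC and 7.16 to 7.29 in WT QSC) did not pass either.

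Calcium handling and energy supply complete the list. Casq1, the calcium buffer of the fast-fibre reticulum, was at 6.79, 6.66 and 7.13 in WT QSC and at 7.59, 7.44 and 7.27 in WT CSC, a rise of 0.57 ± 0.16 that failed in 7 of 15 alternatives, among them each one that left out WT QSC pool 1 or 2 or a WT CSC pool (0.47 to 0.65). Its level in the single pools ran from 6.78 to 7.0. The slow and cardiac form Casq2 was at 7.30, 6.91 and 7.48 in WT QSC and at 7.64, 7.36 and 7.34 in WT CSC, with overlap. In the single pools Casq2 was at 6.36 in WT CSC at 28 days, 8.16 in TSC1 KO QSC, 6.84 in Rptor KO QSC, 6.31 in Rptor KO CSC, 7.34 in QSC and 7.77 in CSC of the cMet KO. The fast calcium pump Atp2a1 (0.31 ± 0.36), the ryanodine receptor Ryr1 (0.67 ± 0.32), its voltage sensor Cacna1s (0.09 ± 0.14), creatine kinase Ckm (-0.04 ± 0.29) and myoglobin Mb (-0.17 ± 0.15) did not pass in WT CSC.

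By isoform class, 3 of 5 developmental or cardiac genes rose in WT CSC (median difference 1.20). Of 7 tested slow genes 2 rose and 1 fell (0.22, or 0.08 over the 8 measured). Of 8 tested fast genes 4 rose (0.53, or 0.42 over the 12 measured). Of 16 tested shared genes 4 rose (0.36, or 0.31 over the 17 measured). Among all genes tested 10.6% rose and 7.36% fell. The rise crossed fibre types: slow Tnni1 and Tnnc1 rose beside fast Tnni2, Tnnt3 and Actn3.

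Other genes of the fibre did not move as one in WT CSC. From a list of 49 further sarcomere and fibre genes (47 measured, 38 tested), 6 rose and 5 fell, with a median of 0.01. The shares of all genes tested were 10.6% and 7.36%. Eno3, the muscle enolase of glycolysis, rose most, from 8.65, 8.10 and 8.49 to 12.05, 11.83 and 12.14 (3.59 ± 0.17, limma adjusted p = 3.53e-05), and Lmod3, which nucleates thin filaments, rose by 1.05 ± 0.16. Dystrophin (Dmd, -0.97 ± 0.18), which links the cytoskeleton to the membrane, and tropomodulin (Tmod1, -0.69 ± 0.13), which caps the thin filament, fell. Of 18 measured nonmuscle relatives of these proteins, such as cytoskeletal myosins and actinins, 1 rose: the nonmuscle alpha-actinin Actn1 (0.79 ± 0.18, limma adjusted p = 0.0188).

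Markers of other cells moved in the same comparison. In WT CSC 11 of 14 endothelial markers fell (median -1.16), led by Emcn (-1.79 ± 0.19), with 6 of 13 fibro-adipogenic (-0.66) and 6 of 11 smooth muscle and pericyte markers (-0.70). Of 11 tested macrophage and monocyte markers none passed (limma; 1 at unadjusted p under 0.05), and 4 of 10 satellite cell markers fell (-0.52), Chodl most clearly (-1.28 ± 0.17). The 3 WT CSC pools were at -1.32, -1.03 and -1.09 for the endothelial median relative to WT QSC, so that WT CSC pool 1, which was highest for 34 of the 42 genes, was lowest there. Pool 1 was also the lowest of the 3 for the satellite cell (-0.76) and fibro-adipogenic medians (-0.88). It was the highest of the 3 for the smooth muscle and pericyte median (-0.62). Of 7 tested muscle fibre markers outside the 42 genes, 1 (Eno3) rose, and the median was -0.06. The part of these shifts in cell makeup in the results for the 42 genes was not tested. In sorted bulk samples a change in the number of cells of a type and a change in RNA per cell cannot be told apart.

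The next comparison asks whether the change lasted, with 1 WT CSC pool at 28 days. Against WT QSC none of the 36 tested genes passed (0% of all genes, limma). At unadjusted p under 0.05 there were 2, both lower (Myl1, -1.35 ± 0.44, and Casq2, -0.86 ± 0.24), against 3.2% of all genes. The 28-day pool was below all 3 WT QSC pools for 13 of 36 genes (19% of all genes tested) and above them for 2 (19.8%), and the median difference was -0.31. Markers of other cells were low in this pool as well, with medians of -1.15 for 14 endothelial (12 lower at unadjusted p under 0.05), -0.46 for 13 fibro-adipogenic, -0.51 for 11 smooth muscle and pericyte and -0.37 for 11 macrophage and monocyte genes. None of these markers passed (limma), satellite cell markers had a median of 0.01, and the part of these markers in the result was not tested. Against WT CSC at 2.5 days, 11 of 36 genes were lower and 0 higher, against 6.32% and 2.06% of all genes tested. The 11 were Myh3 (-2.5 ± 0.31), Myl4, Tnni1 (-1.75 ± 0.24), Tnnt2 (-2.25 ± 0.36), Tnnt3, Actn3, Ttn (-2.90 ± 0.68), Neb, Tpm1 (-2.29 ± 0.28), Tpm2 and Casq2 (-1.08 ± 0.24). For Tnni1, Tnnc1 and Actn3 the 28-day values of 7.06, 6.86 and 9.08 lay beside WT QSC means of 7.16, 6.78 and 9.06. The comparisons share the WT CSC or WT QSC pools with the first one, and the count was 6 without WT CSC pool 1 (4.69% of all genes called in either direction, against 8.38% with all pools), 5 without WT CSC pool 2 (4.13%) and 17 without WT QSC pool 2 (12.7%).

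Loss of TSC1 without injury was asked with 1 pool, and it gave the highest value of all 12 pools for 16 of the 42 genes (15.4% of all genes tested), next to 18 for WT CSC pool 1 (16.8%). None of the 36 tested genes passed against WT QSC (limma adjusted p of 0.0705 or more), in a comparison where 0.0143% of all genes passed. At unadjusted p under 0.05, 15 were higher and 0 lower, against 7.07% and 1.75% of all genes. The pool was above all 3 WT QSC pools for 26 of 36 genes (30.3% of all genes), and the median difference was 0.61 (0.53 over all 42 genes), against 0.04 over all genes tested. The largest differences were in the light chains Myl4 (2.36 ± 0.31, limma adjusted p = 0.0705) and Myl1 (2.28 ± 0.44, 0.195) and in alpha-actinin Actn2 (2.05 ± 0.40, 0.195). Nebulin (1.68 ± 0.46), Acta1 (1.26 ± 0.69), Myh8 (1.24 ± 0.23), Ttn (1.24 ± 0.68), Atp2a1 (1.22 ± 0.51), myoglobin (1.17 ± 0.21) and Mybpc1 (1.14 ± 0.28) followed, of which Acta1 and Ttn had an unadjusted p above 0.05. The 2 arrays of the pool differed by at most 0.45 for any of the 42 genes (Myom1).

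**Figure D3:**
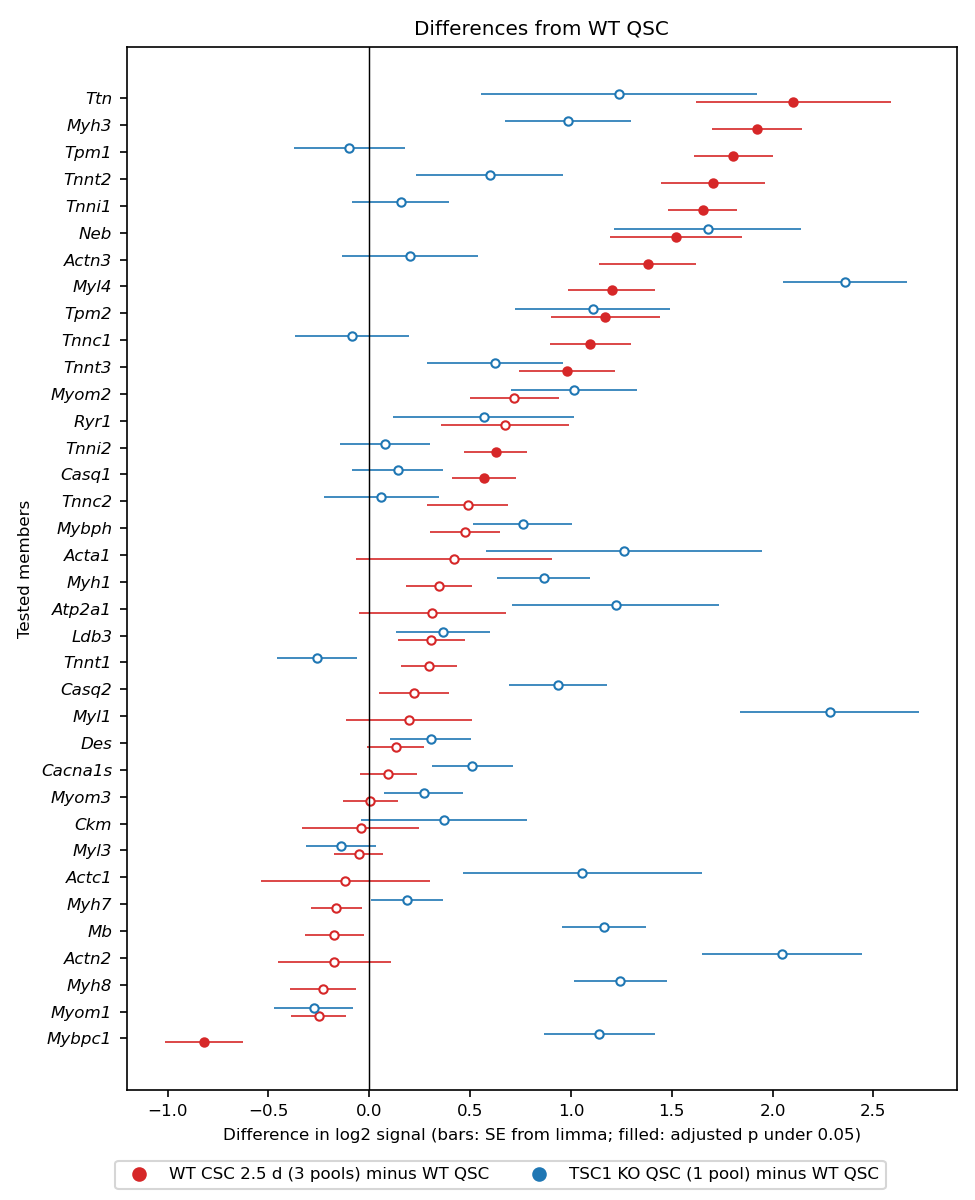
Difference in log2 signal from the WT QSC mean (horizontal axis) for the 36 tested genes, ordered by the WT CSC value. Red points are WT CSC at 2.5 days (3 pools) and blue points TSC1 KO QSC (1 pool), bars are SEs from limma and filled points passed at adjusted p under 0.05. Myl4, Myl1, Actn2, Myh8, Mb and Mybpc1 lie further right in TSC1 KO QSC, and Tpm1, Tnni1 and Tnnc1 lie near 0 there.

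The TSC1 KO QSC pool was also set directly against the 3 WT CSC pools, since the comparisons of both with WT QSC share those pools. This comparison was added after the values were seen, and Myl1, Actn2 and Mb are described for it. It called 6 of the 36 genes higher and 3 lower, against 5.3% and 3.66% of all genes tested. Markers of other cells were also higher in this comparison, in 7 of 14 endothelial genes (median 0.92), 3 of 13 fibro-adipogenic (0.27) and 2 of 11 smooth muscle and pericyte genes (0.85), as were 4 of 10 satellite cell markers (0.85). Their part in the result was not tested. Higher in TSC1 KO QSC were Actn2 (10.14 against 7.75 to 8.18, difference 2.22 ± 0.40), Myl1 (2.09 ± 0.44), Mybpc1 (9.95 against 7.70 to 8.36, 1.96 ± 0.28), Myh8 (1.48 ± 0.23), Mb (8.75 against 7.38 to 7.43, 1.34 ± 0.21) and Myl4 (1.16 ± 0.31). Lower were the thin-filament regulators Tpm1 (-1.90 ± 0.28, limma adjusted p = 0.0061), Tnni1 (-1.50 ± 0.24) and Tnnc1 (-1.18 ± 0.28). Myl1 did not pass without WT CSC pool 2 (2.02) or 3 (1.99), Myl4 without WT CSC pool 2 (1.13) or 3 (1.00) and Tnnc1 without WT CSC pool 1 (-1.01) or 2 (-1.12), and the last pair also failed with arrays centred on their medians or with no filter. The count of 9 became 6 without WT CSC pool 2, with 3.68% of all genes called. For the 9 troponins and tropomyosins the median difference from WT QSC was 0.08 in TSC1 KO QSC, where 1 (Tpm2) had an unadjusted p under 0.05, and 1.10 in WT CSC. For myosin heavy chains it was 0.92 over the 4 tested genes and 0.53 over all 6 measured in TSC1 KO QSC, and 0.09 and -0.16 in WT CSC.

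In TSC1 KO QSC the other sarcomere and fibre genes had a median difference of 0.31 from WT QSC, and 0 of 38 passed (limma; 12 higher and 0 lower at unadjusted p under 0.05). Endothelial markers were at a median of -0.32, fibro-adipogenic at -0.17 and macrophage and monocyte markers at -0.06, with 0 passed in each list (limma; at unadjusted p under 0.05, 1 lower, 1 higher and 1 lower, and 2 lower, in that order). The satellite cell markers were at 0.32 (limma; 0 of 10 passed and 0 had an unadjusted p under 0.05). Without WT QSC pool 1, 3 of the 36 genes passed against WT QSC (Myl1, Myl4 and Actn2), and the share of all genes that passed rose to 1.66%.

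Loss of raptor or cMet without injury was asked with 1 pool each. In Rptor KO QSC none of the 36 genes passed (limma; 0.122% of all genes did), 4 were lower at unadjusted p under 0.05 (7.25% of all genes) and the median difference was -0.32. Actc1 was at 7.92 in Rptor KO QSC and 9.19 in Rptor KO CSC, against 11.55, 10.07 and 12.06 in WT QSC, so that both raptor pools lay below every other pool. The difference of Rptor KO QSC from WT QSC was -3.31 ± 0.59 (limma adjusted p = 0.083). Actn3, with the values given above, showed -1.79 ± 0.34 (limma adjusted p = 0.106). Without WT QSC pool 2, 2 genes passed in Rptor KO QSC (Acta1 and Actc1), with 0.33% of all genes. In cMet KO QSC none of the 36 passed and 0 had an unadjusted p under 0.05 (limma; 0% of all genes passed and 1.33% had an unadjusted p under 0.05), with a median difference of -0.08.

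The last question is whether these genes respond to the distant injury without raptor or without cMet. None of the 36 genes passed for CSC against QSC in the Rptor KO (limma; 0.258% of all genes did), where 1 pool was set against 1. At unadjusted p under 0.05, 2 were higher: Tnnt2 (1.21 ± 0.45) and Myl4 (0.91 ± 0.38), against 3.09% of all genes. In the cMet KO 0 passed and 0 had an unadjusted p under 0.05 (limma; 0% and 0.537% of all genes), and the largest difference of a gene that rose in WT was again Tnnt2 (0.98 ± 0.44). Myh3, which rose by 1.92 in WT, differed by 0.07 ± 0.38 in the Rptor KO and by -0.12 ± 0.38 in the cMet KO. Tnni1 differed by 0.41 ± 0.29 and 0.39 ± 0.29, and Tpm1 by 0.74 ± 0.34 and 0.42 ± 0.34.

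The difference between each knockout's response and the WT response was tested itself. None of the 36 genes passed in either case (limma; 0% of all genes in the Rptor KO and 0.158% in the cMet KO), and 8 were lower at unadjusted p under 0.05 in each, against 2.91% and 5.77% of all genes. Genes called in WT were chosen by the WT response, which is subtracted in these differences. That choice favours negative values for genes that rose in WT. For the genes called in WT, the differences are given in the order of their WT p, first in the Rptor KO and then in the cMet KO. They were -1.25 ± 0.34 and -1.27 ± 0.34 for Tnni1, -1.06 ± 0.39 and -1.39 ± 0.39 for Tpm1, -1.85 ± 0.44 and -2.04 ± 0.44 for Myh3, and -0.50 ± 0.52 and -0.72 ± 0.52 for Tnnt2. Actn3 followed with -0.95 ± 0.48 and -1.62 ± 0.48, Myl4 with -0.29 ± 0.43 and -1.01 ± 0.43, Tnnc1 with -0.92 ± 0.40 and -1.11 ± 0.40, and Neb with -0.79 ± 0.66 and -1.50 ± 0.66. For the genes with less clear rises, Ttn, Tpm2, Tnnt3, Tnni2 and Casq1, the values lay between -1.60 (Ttn) and -0.72 (Tpm2) in the Rptor KO and between -2.22 (Ttn) and -0.61 (Casq1) in the cMet KO. Mybpc1, which fell in WT, differed by 0.20 ± 0.39 and 0.59 ± 0.39. Single genes thus ranged widely: the value for Myl4 in the Rptor KO was smaller than its SE. The smallest limma adjusted p were 0.492 and 0.129, both for Myh3. The comparisons of both knockouts with WT share the WT pools. For Tnnt2 the 95% intervals of the difference between responses ran from -1.67 to 0.67 in the Rptor KO and from -1.89 to 0.45 in the cMet KO, and both include 0.

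**Figure D4:**
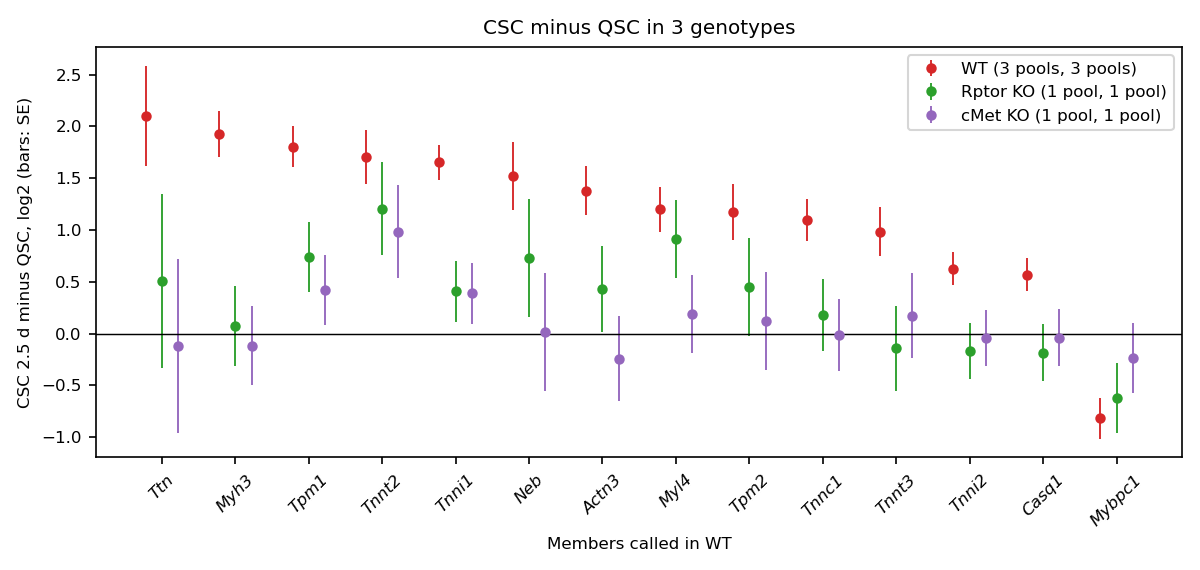
CSC at 2.5 days minus QSC (vertical axis, log2 signal, bars SE from limma) in WT (red), Rptor KO (green) and cMet KO (purple) for the 14 genes called in WT. The WT points were chosen for being called. Myh3 stands at 1.92 in WT and at 0.07 and -0.12 in the knockouts, and Tnnt2 at 1.70, 1.21 and 0.98.

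Set directly against the 3 WT CSC pools, the knockout CSC pools were lower for part of the list. In Rptor KO CSC, 6 of 36 genes were lower and 0 higher, against 2.97% and 0.924% of all genes tested: Actn3 (-2.74 ± 0.34), Myh3 (-2.37 ± 0.31), Tpm1 (-1.41 ± 0.28), Tnnt1 (-1.18 ± 0.20), Tnni1 (-1.16 ± 0.24) and Casq2 (-1.14 ± 0.24). In cMet KO CSC, 5 were lower and 0 higher, against 3.35% and 3.4%: Myh3 (-2.11 ± 0.31), Tnni1 (-1.47 ± 0.24), Tpm1 (-1.29 ± 0.28), Tnnc1 (-1.14 ± 0.28) and Tnni2 (-0.90 ± 0.22). The median difference was -0.92 in Rptor KO CSC and -0.82 in cMet KO CSC. Rptor KO CSC was below all WT CSC pools for 30 of 36 genes (38.3% of all genes tested) and cMet KO CSC for 29 (35%). The counts depended on the pools: for Rptor KO CSC they were 3, 2 and 1 without WT CSC pool 1, 2 or 3 and 15 or 10 without WT QSC pool 2 or 3. The share of all genes called in either direction, 3.9% with all pools, was 1.67%, 0.487%, 0.179%, 7.12% and 3.9% in that order. For cMet KO CSC they were 2 without WT CSC pool 1 or pool 2 and 13 without WT QSC pool 2, with 3.03%, 2.68% and 11.3% of all genes against 6.74%.

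Other cells differed in the same knockout pools. In Rptor KO CSC 10 of 11 tested macrophage and monocyte markers were higher than in WT CSC (median 1.99, for example Csf1r at 8.61 against 6.89 to 6.91). Endothelial markers there had a median of 0.58, with all 14 positive, 0 passed and 5 higher at unadjusted p under 0.05 (limma). In cMet KO CSC 11 of 14 endothelial markers were higher (1.77), with 6 of 13 fibro-adipogenic (0.95) 4 of 11 smooth muscle and pericyte (1.01) and 2 of 11 macrophage and monocyte markers (0.45), in mice of a strain mix that the other groups did not have. The part of these cells in the lower values of the 42 genes was not tested. Satellite cell markers differed little in median, by 0.10 in Rptor KO CSC (limma; 0 of 10 passed and 0 had an unadjusted p under 0.05) and by 0.17 in cMet KO CSC (1 of 10 higher).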

How the data were processed

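Per the submitters' processing notes, the deposited log2 signals came from Affymetrix Expression Console with RMA. Version, library files and build: not given in the sources used here. Of 35556 probesets, 21789 had 1 gene symbol in the platform annotation, 1621 several and 12146 were not listed. The brightest probeset stood for a gene, and the arrays of a pool were averaged. Array medians lay between 7.03 and 7.21, and the number of arrays limits the precision. Group means of the 8 groups were fitted to the 12 pools with limma 3.58.1 (lmFit and eBayes, R 4.3.3), with Benjamini-Hochberg adjustment over 13956 genes and a threshold of 0.05. The spread was estimated from the WT pools (4 degrees of freedom). Only the comparison of WT CSC with WT QSC was tried on simulated data, with noise drawn independently for each gene and pool. The 42 genes and all lists were chosen with earlier results of these data known. Every gene was accounted for. Values by pool, or as ranges over pools, were given for genes past the threshold in a planned comparison and for myosin heavy chains and troponins. From each companion list up to 4 genes were named by p. Alternatives covered scaling, the filter, the probeset rule, the fit, array use and left-out pools.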

Additional observations from a re-analysis of the deposited data

How the results depend on the processing

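The 14 genes called between WT CSC and WT QSC became 9 to 15 when 1 WT pool was left out. The share of all genes called was then 8.56% to 18.8%, from 18%. With the replicate block on the 6 WT pools there were 14 (20% of all genes), of which 13 were shared (Casq1 lost, Myom2 gained). Deviations of same-numbered pools correlated at 0.319, -0.0331 and -0.0342, and those of differently numbered pools at -0.306 to 0.317. With only 3 pools per group, these values cannot decide whether the numbers pair the pools. Leaving out 1 WT pool gave 5 to 17 genes (from 11) for 28 days against 2.5 days, with 3.25% to 12.7% of all genes (from 8.38%). Against WT QSC it gave 0 to 3 (from 0) for TSC1 KO QSC, with 0.00717% to 1.66% (from 0.0143%). For Rptor KO QSC it gave 0 to 2 (from 0), with 0.0143% to 0.33% (from 0.122%). Against WT CSC it gave 1 to 15 (from 6) for Rptor KO CSC, with 0.179% to 7.12% of all genes (from 3.9%). For cMet KO CSC it gave 2 to 13 (from 5), with 2.25% to 11.3% (from 6.74%). For TSC1 KO QSC it gave 6 to 13 (from 9), with 3.08% to 14.1% (from 8.96%). With all arrays and the pool as a random block, the share of all genes called was higher in each comparison given here. Counts were 18 for WT CSC against WT QSC (25.8% of all genes, from 18%) and 20 for 28 days against 2.5 days (16.9%, from 8.38%). Counts against WT QSC were 10 for TSC1 KO QSC (1.25%, from 0.0143%) and 2 for Rptor KO QSC (1.68%, from 0.122%). They were 20, 20 and 14 for Rptor KO CSC, cMet KO CSC and TSC1 KO QSC against WT CSC (9.87%, 15.6% and 18.1% of all genes), and 1 and 3 for the differences between the Rptor KO or cMet KO response and the WT response (0.351% and 2.56%). With no filter on dim genes there were 6 for 28 days against 2.5 days and 3 for cMet KO CSC, which also had 3 with arrays centred on their medians. TSC1 KO QSC against WT QSC had 1 call (Myl4) after repeated quantile normalization (0.043% of all genes) and with the filter at the 50th percentile (0.0602%). It had the same call with trend and robust eBayes and with the first array of each pool (0.0717% each). Rptor KO QSC had 1 (Actc1) with the filter at the 50th percentile (0.331%). The cause of these moves was not tested. Among genes that did not pass in WT CSC against WT QSC, the sign turned for Myl3 (0.069) and Myom3 (-0.040) with the first array of each pool. Leaving out 1 WT pool turned the sign within these ranges: Myl1 -0.20 to 0.47, Acta1 -0.24 to 0.96, Actc1 -0.70 to 0.30, Actn2 -0.53 to 0.021, Ckm -0.42 to 0.23, Myom3 -0.077 to 0.11, Atp2a1 -0.15 to 0.66 and Cacna1s -0.000982 to 0.18. Single-pool groups and wide WT QSC spread limit what could be detected: the median SE was 0.154 for 3 pools against 3, 0.218 for 1 against 3 and 0.267 for 1 against 1.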

Other observations

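Of 11 acetylcholine receptor and junction genes, 4 rose in WT CSC and 0 fell, against 10.6% and 7.36% of all genes tested. The other 7 did not pass, of which 1 was higher and 3 were lower at unadjusted p under 0.05, and the median was 0.15. Chrng, the fetal gamma subunit of the receptor, was at 7.37, 6.93 and 7.80 in WT QSC and at 10.07, 8.90 and 8.97 in WT CSC (1.95 ± 0.32, limma adjusted p = 0.00468). Chrna1 rose by 1.26 ± 0.19, Chrnd by 1.69 ± 0.32 and Lrp4, a receptor for agrin, by 0.65 ± 0.19. Of 16 myogenic factors and cofactors, 3 rose and 5 fell. Mymx, a fusion protein of myoblasts, rose (0.88 ± 0.17) with Mef2a (0.73 ± 0.15), and Pax7 (-1.07 ± 0.25) and Pax3 (-0.62 ± 0.13) fell.

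Myogenin (Myog), which drives terminal differentiation, did not pass in WT CSC (0.44 ± 0.44, limma adjusted p = 0.54). Its levels were 9.77, 8.35 and 10.33 in WT QSC and 10.36, 9.89 and 9.52 in WT CSC. They were 8.06 in WT CSC at 28 days, 10.74 in TSC1 KO QSC, 7.10 in QSC and 7.95 in CSC of the Rptor KO, and 8.82 in QSC and 8.87 in CSC of the cMet KO. Its lowest WT QSC pool was pool 2, which was also lowest for 37 of the 42 sarcomere and fibre genes and for 50.4% of all genes tested.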
